A study of Drosophila melanogaster with 9 samples.

Results

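The cells described here are the control cells of the wing disc series: GFP-positive cells sorted from the dpp domain of wing imaginal discs of larvae at the wandering stage in which this domain made GFP alone. They were taken by genotype, and they gave 3 libraries (gfp_1, gfp_2 and gfp_3) of the 9 libraries in the series. The labelled genotype was w/+; +/+; dpp-gal4, uas-gfp/+, so that 1 copy of the driver and 1 copy of the reporter were present and no signalling gene was mis-expressed. Viable GFP-positive cells were collected by flow cytometry from at least 60 discs for each library, and RNA was amplified and sequenced. Each library is therefore a pool over many animals, whose sex is not given in the sources used here, and the population is set by where dpp-gal4 was active, not by dpp RNA itself. Nothing in the labels says whether the 3 libraries came from separate crosses, so the spread between them may be in part technical. The libraries of the other genotypes were not used, and the values below are levels in 1 group with no test between groups.

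The wing disc is the epithelial sac from which the adult wing and the thoracic body wall form. Posterior cells make Engrailed and Hedgehog, and anterior cells make Cubitus interruptus (Ci), the transcription factor that Hedgehog controls. Where Hedgehog crosses the border, anterior cells stabilise Ci and transcribe ptc, its receptor, and dpp, a BMP-type ligand that patterns the wing along the anterior-posterior axis. The stripe of dpp cells runs through the notum, the hinge and the pouch, on the anterior side of the border. Cells sorted from it are therefore expected to be a mixture over the dorsal-ventral and proximal-distal axes. Whether all sorted cells were anterior was not tested.

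The 3 libraries held 5265349, 5485258 and 5835854 counts in gfp_1, gfp_2 and gfp_3. Ribosomal RNA genes took 26.8% ± 2.80 of these counts (mean ± SD, n = 3), most of it at CR41602 (23.0% ± 2.39), although the labels describe the RNA as polyadenylated and the methods of the study describe total RNA. Counts on all other genes were 3732000, 3975581 and 4454054, and they are the totals behind CPM values used here (counts scaled to a common total). Levels of different genes are compared only per length, as TPM, the same scaling applied to counts divided by merged exon length, over nuclear genes other than rRNA. A gene at 0 counts in all 3 libraries could still be present at up to 0.247 CPM, which is 3 counts over their sum.

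The defining genes of the sorted stripe were all present at high levels. The counts of ci, at chr4:47710-57041 on the minus strand of BDGP6, were 5583, 5896 and 7651 in gfp_1, gfp_2 and gfp_3, and its level was 685 ± 47.2 TPM (mean ± SD, n = 3, as for every TPM value below). The Hedgehog receptor gene ptc (chr2R:8649649-8665223, plus strand) had 1338, 1504 and 1695 counts and 167 ± 4.91 TPM. The ligand gene dpp (chr2L:2428372-2459823, plus strand) had 1207, 1408 and 1602 counts and 164 ± 8.40 TPM. The ranges of ptc and dpp over the libraries overlapped and both lay below the lowest library of ci, which ranked 166 among all nuclear genes by TPM.

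Posterior genes were low but were read in every library. The selector gene engrailed (en) had 127, 159 and 175 counts and 33.5 ± 2.82 TPM, its neighbour and partner invected (inv) had 436, 461 and 468 counts and 47.1 ± 3.40 TPM, and hedgehog (hh) had 103, 155 and 149 counts and 34.8 ± 6.09 TPM. Within each library ci stood 18.3 to 21.7 times above en, 13.4 to 17.1 times above inv and 16.0 to 22.7 times above hh on the TPM scale. Anterior cells next to the border are known to make some En late in larval life, and in bulk RNA fewer cells of a kind and less RNA per cell cannot be told apart, so these values do not give a share of posterior cells.

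**Figure D1:**
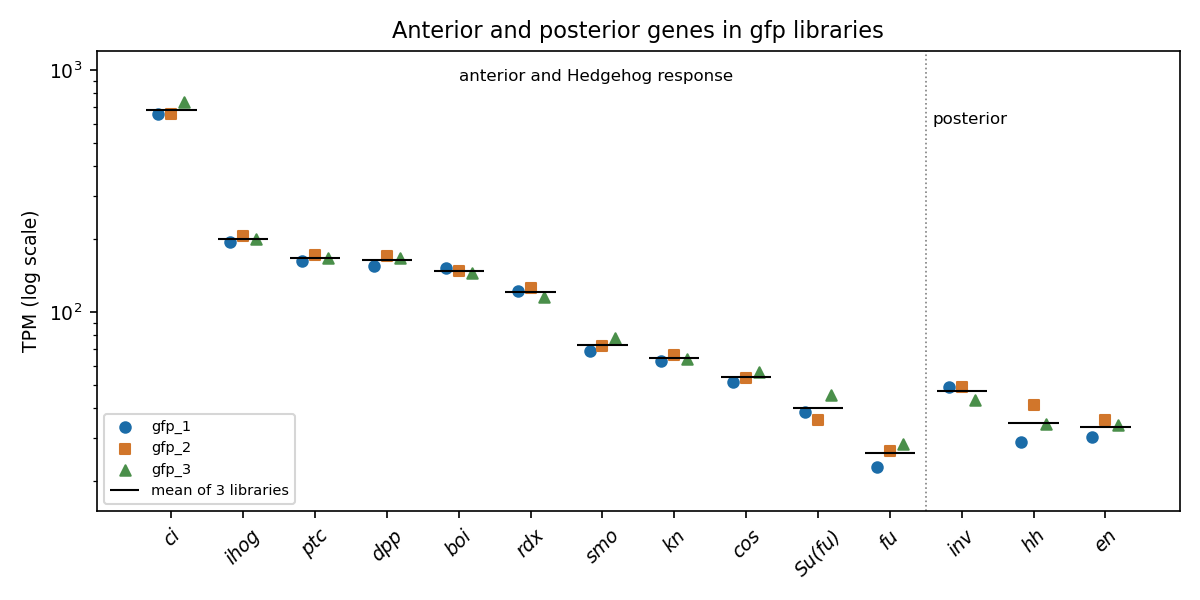
TPM (log scale) of 11 anterior or Hedgehog response genes and 3 posterior genes, with 1 point for each of the libraries gfp_1, gfp_2 and gfp_3 and a line at their mean. The 3 points of ci, at 656 to 740 TPM, lie above all other points, and the posterior genes inv, hh and en lie between 29.0 and 49.1 TPM.

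The other Hedgehog components were all lower than ci, and the lowest of them reached the levels of the posterior genes or less. The co-receptor genes ihog and boi had 200 ± 5.93 and 148 ± 3.57 TPM. The gene rdx, which encodes the adaptor that targets Ci for degradation and is itself a Hedgehog target, had 121 ± 5.40 TPM, and kn (collier), a target gene of high Hedgehog activity along the border, had 64.4 ± 1.97 TPM. The signal transducer gene smo had 73.0 ± 4.37 TPM, with 27.1% of its exon bases shared with neighbouring genes. Intracellular regulators were lower, with cos at 53.7 ± 2.42 TPM, Su(fu) at 40.0 ± 4.99 TPM and the kinase gene fu at 26.02 ± 2.95 TPM, below en, inv and hh in their lowest libraries. Of the genes that serve Hedgehog release, disp had 58.5 ± 1.75 TPM and the acyltransferase gene rasp had 32.8 ± 3.57 TPM.

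The breadth of RNA in these cells was large. Of 16392 genes other than rRNA, 12781 (78.0%) reached 1 CPM in all 3 libraries and are counted as detected, 1430 reached it in some libraries, 1119 stayed below it in all 3 and 1062 had no count. By mean level, 4905 genes stood at 1 to 10 CPM, 6572 at 10 to 100 CPM, 2013 at 100 to 1000 CPM and 115 at 1000 CPM or more. A set of 667 genes held 50% of the counts other than rRNA, and the 10 highest genes by CPM held 5.07% ± 0.237.

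Detection at this threshold is not the same as activity in disc cells. Odorant, gustatory and ionotropic receptor genes, which serve taste and smell in sensory neurons, gave a reference for this that was chosen after their values were seen. Of 176 such chemoreceptor genes, 128 (72.7%) were detected, close to the 78.0% of all genes, with a median of 9.85 TPM and a summed level of 1713 to 2007 CPM over the libraries. Their 95th percentile was 51.2 TPM, which by definition leaves 9 of them above it, with Or65c highest at 102 ± 6.16 TPM. Below, a gene is said to stand above the chemoreceptor level when its mean exceeds 51.2 TPM, which 4006 of 16119 genes with a length did (24.9%), and values under it are given as read without a statement on whether the gene was active. The list counts below are to be read against these shares of all genes, 78.0% detected and 24.9% above the chemoreceptor level. The origin of the counts on chemoreceptor genes was not tested.

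The most abundant nuclear RNAs belonged to the translation apparatus. The elongation factor gene Ef1alpha48D (eEF1alpha1) was highest, with 39184, 44537 and 49316 counts and 10972 ± 383 TPM. RpL41, whose product is a very short ribosomal protein, followed at 10613 ± 1916 TPM, and its CPM in gfp_3 was 1.39 times that in its lowest library. Ribosomal protein genes made up 12 of the 20 highest genes, among them RpS3 at 6546 ± 222 TPM, RpS3A at 5698 ± 132 TPM, RpS18 at 5251 ± 369 TPM, RpL40 at 5069 ± 429 TPM, RpL10 at 4740 ± 105 TPM and RpS7 at 4686 ± 191 TPM. RpS27A (4400 ± 206 TPM), RpL31 (4211 ± 466 TPM), RpS15 (3985 ± 327 TPM), RpL15 (3726 ± 205 TPM) and RpS23 (3616 ± 249 TPM) completed that group.

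**Figure D2:**
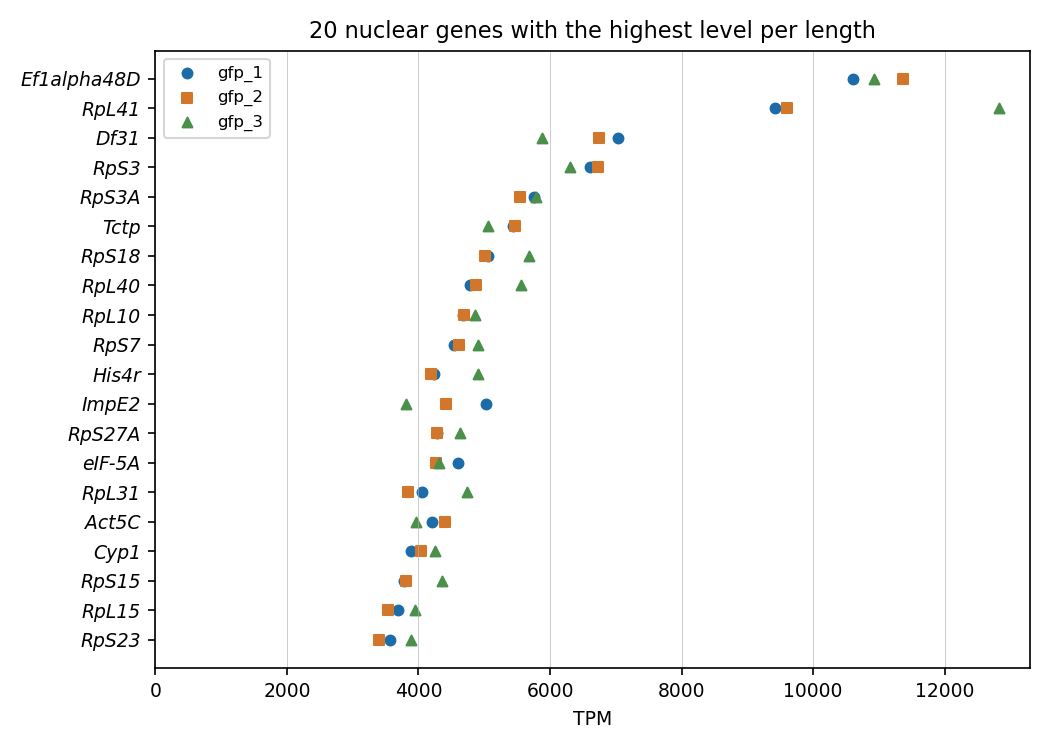
TPM of the 20 nuclear genes with the highest level per length, with 1 point per gfp library and genes ordered by mean. Ef1alpha48D and RpL41 stand apart at means of 10972 and 10613 TPM, and the other 18 genes lie between means of 3616 and 6552 TPM.

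Outside the ribosome, the 10 highest genes included chromatin, folding and cytoskeletal factors. After Ef1alpha48D came Df31, which encodes a chromatin decondensation factor, with 21941, 22331 and 22440 counts and 6552 ± 595 TPM. The growth-related gene Tctp had 5318 ± 232 TPM, the replication-independent histone gene His4r had 4445 ± 404 TPM and eIF-5A (eEF5), which encodes a translation factor, had 4392 ± 185 TPM. The ecdysone-inducible gene ImpE2 stood among these genes at 4416 ± 607 TPM. Cytoplasmic actin from Act5C (4192 ± 217 TPM), the cyclophilin gene Cyp1 (4057 ± 184 TPM) and the chaperone genes Hsc70-4 (3088 ± 346 TPM) and Hsp83 (3010 ± 184 TPM) completed the 10.

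Most ribosomal protein genes were high. Of 91 ribosomal protein genes, 86 were detected and 83 stood above the chemoreceptor level, and the family took 6.74% ± 0.310 of the counts other than rRNA, or 17.8% per kb of exon. The lowest were paralogs, with RpL37b at 1, 0 and 4 counts, RpL22-like at 6, 7 and 4, RpS28-like at 0, 5 and 0 and RpS10a at 8, 2 and 0. RpS5b (13.6 ± 3.01 TPM), RpL10Aa (12.6 ± 10.9 TPM), RpS28a (21.3 ± 16.6 TPM) and RpS19b (25.1 ± 6.13 TPM) were also below the chemoreceptor level. Reads that fit a paralog equally well may not have been counted, so the level of such copies is uncertain.

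The actin and tubulin genes ranged widely within their families. Act5C exceeded Act42A (1544 ± 16.1 TPM) by 2.59 to 2.82 times in the 3 libraries, and the muscle actin genes Act88F, Act87E, Act79B and Act57B lay at 14.1 ± 1.21, 12.96 ± 7.99, 8.66 ± 4.05 and 5.09 ± 4.33 TPM. The tubulin genes betaTub56D (3001 ± 282 TPM) and alphaTub84B (2026 ± 37.5 TPM) led their family, with alphaTub84D at 388 ± 12.8 TPM and betaTub60D at 275 ± 18.9 TPM. The testis tubulin gene betaTub85D had 7.30 ± 2.19 TPM, and the female germline gene alphaTub67C had 15.1 ± 4.55 TPM. Housekeeping genes in wide use as references spanned a large range, with RpL32 at 1367 ± 200 TPM, Gapdh2 at 436 ± 16.1 TPM, SdhA at 103 ± 14.7 TPM and Tbp at 35.03 ± 5.20 TPM.

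Enzymes of detoxification were uneven. Of 35 glutathione S-transferase genes, 34 (97.1%) were detected and 15 (42.9%) stood above the chemoreceptor level. GstS1 had 2083 ± 146 TPM and GstD1 had 1695 ± 132 TPM, and the next, GstD10 at 453 ± 83.1 TPM and GstD9 at 368 ± 90.8 TPM, are from the same cluster as GstD1. GstD2, another gene of that cluster, had 3, 4 and 6 counts. Of 85 cytochrome P450 genes 65 (76.5%) were detected, close to the 78.0% of all genes, and 10 of the 82 with a length (12.2%) stood above the chemoreceptor level, against 24.9% of all genes, with 80.4 TPM as the highest mean in the family.

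All 7 genes of the dorsal list stood above the chemoreceptor level. The dorsal selector gene ap had 2824, 3226 and 3400 counts and 445 ± 21.5 TPM. Its target genes fng, which encodes a glycosyltransferase that modifies Notch, and Ser, which encodes a Notch ligand, had 282 ± 24.9 and 184 ± 18.9 TPM. The adhesion genes trn and caps had 171 ± 28.0 and 58.7 ± 6.42 TPM, Bx, which encodes a LIM-only protein that limits Ap, had 89.2 ± 10.8 TPM, and Dr (msh) had 80.5 ± 9.12 TPM.

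All 12 pouch genes were detected and 11 (91.7%) exceeded the chemoreceptor level. The selector vg had 1359, 1647 and 1644 counts and 243 ± 19.9 TPM, and its DNA-binding partner sd had 188 ± 9.20 TPM. The highest pouch gene was bi (omb), a T-box gene activated by Dpp, at 338 ± 14.7 TPM, followed by fj at 302 ± 30.5 TPM, which encodes a Golgi kinase of the Fat and Dachsous system. The Dpp targets salm and salr had 198 ± 27.0 and 105 ± 5.16 TPM, and salm stood 1.54 to 2.08 times above salr in each library. The pouch-wide genes nub (161 ± 15.6 TPM), rn (158 ± 2.87 TPM) and dve (94.7 ± 8.61 TPM), the distal gene Dll (76.4 ± 13.6 TPM) and the intervein gene bs (68.2 ± 10.4 TPM) were next, and Poxn was lowest at 12.1 ± 1.08 TPM.

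Hinge genes ranged widely, and 8 of 13 stood above the chemoreceptor level. The transcription factor gene bowl had 332 ± 4.29 TPM, hth, the proximal homeobox gene, had 317 ± 14.2 TPM, and the hinge gene zfh2 had 253 ± 9.98 TPM. The genes exd, which encodes the partner of Hth, and tsh had 154 ± 17.4 and 106 ± 13.02 TPM. Of the 3 Dorsocross T-box genes, Doc2 had 110 ± 31.5 TPM, Doc1 had 86.0 ± 7.68 TPM and Doc3 had 35.9 ± 5.65 TPM, and Doc2 was the least even, with 386, 228 and 438 counts. Sox15 had 77.7 ± 18.3 TPM. The odd-skipped family genes odd (46.6 ± 5.64 TPM), drm (42.1 ± 10.2 TPM) and sob (21.8 ± 3.33 TPM) were lower than their relative bowl, and Lim1 was lowest of the 13 hinge genes at 2.17 ± 0.471 TPM.

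Notum genes were lower as a group. All 13 were detected but 4 (30.8%) stood above the chemoreceptor level, near the 24.9% of all genes. Their median was 39.4 TPM, against 160 TPM in the pouch list, 86.0 TPM in the hinge list and 21.0 TPM over all genes. The Iroquois gene caup was highest at 186 ± 13.4 TPM and exceeded its neighbour ara (47.8 ± 3.13 TPM) by 3.85 to 3.96 times in each library, while mirr, of the same complex, had 71.0 ± 9.19 TPM. The EGFR ligand gene vn, needed for the notum, had 146 ± 5.25 TPM, and ush, which encodes a cofactor of Pnr, had 72.3 ± 5.39 TPM. The medial notum selector pnr had 230, 228 and 409 counts and 39.8 ± 9.99 TPM, and vg was 4.50 to 8.09 times above it in the 3 libraries.

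The remaining notum genes stood below the chemoreceptor level. The values were 39.4 ± 6.25 TPM for tup, 37.5 ± 5.999 TPM for eyg and 28.8 ± 6.43 TPM for its paralog toe, all patterning genes of the prospective back. The Bar genes B-H1 and B-H2 had 13.2 ± 6.21 and 5.34 ± 0.9997 TPM. The tendon gene sr had 10.8 ± 1.37 TPM, and the homeobox gene ct, which is also used at the wing margin, had 10.64 ± 3.998 TPM.

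Among 8 Hox genes the thoracic gene Antp was highest, with 743, 781 and 951 counts and 63.2 ± 1.90 TPM, although 50.1% of its exon bases are shared with another gene. The haltere selector Ubx, which is also a peripodial gene, had 73, 131 and 95 counts and 14.2 ± 4.35 TPM. Antp stood 3.21 to 5.49 times above Ubx. The head genes lab (16.0 ± 4.61 TPM), Dfd (7.497 ± 2.55 TPM) and pb (1.96 ± 1.14 TPM) and the abdominal gene Abd-B (5.08 ± 0.506 TPM) stood below the chemoreceptor level. Scr had 12, 9 and 0 counts, and abd-A had no count.

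Genes for sensory organ formation were read together with their inhibitors, and 6 of 12 (50%) stood above the chemoreceptor level. The inhibitor gene emc had 1844, 1748 and 1706 counts and 531 ± 73.0 TPM, and the repressor gene h (hairy) had 104 ± 21.0 TPM. The proneural genes sc (296 ± 22.4 TPM) and ac (180 ± 15.6 TPM) stood above l(1)sc (47.3 ± 5.50 TPM) of the same complex, and their partner da had 69.0 ± 4.30 TPM. The chordotonal gene ato had 91.6 ± 26.04 TPM, and amos had 17.3 ± 2.49 TPM. Genes of selected precursors were lower, with neur at 39.6 ± 3.90 TPM (38.8% of exon bases shared with an antisense RNA), ase at 33.5 ± 6.55 TPM, sens at 22.8 ± 0.538 TPM and pros at 14.6 ± 2.001 TPM.

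**Figure D3:**
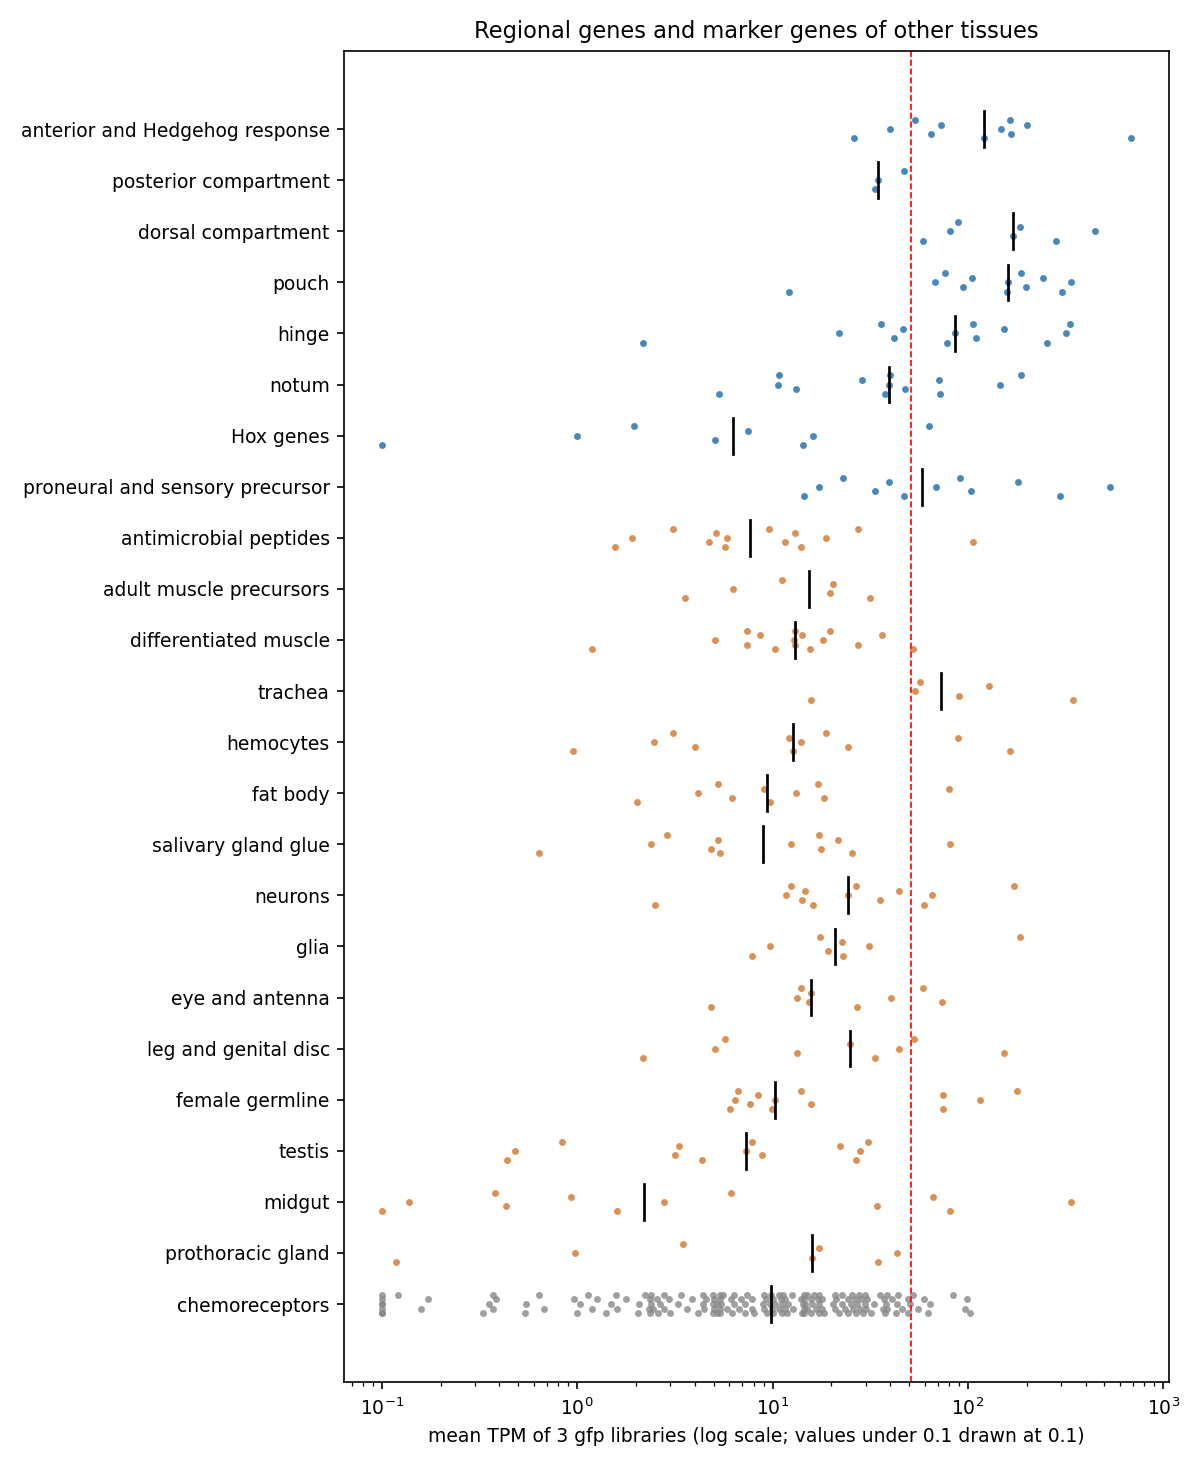
Mean TPM over the 3 gfp libraries (log scale) of each gene of the regional lists (blue), of the marker lists of other tissues (orange) and of 176 chemoreceptor genes (grey). Vertical bars are list medians and the dashed line is the 95th percentile of chemoreceptor genes (51.2 TPM), which 46 of 79 regional genes and 26 of 157 genes of the other lists exceeded.

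Of the Dpp pathway, all 19 genes were detected and 12 stood above the chemoreceptor level. Among ligands dpp exceeded gbb (94.1 ± 5.83 TPM) by 1.67 to 1.85 times, and the early embryonic ligand gene scw had 6.69 ± 1.22 TPM. The receptor genes were tkv at 169 ± 32.1 TPM, put at 116 ± 11.5 TPM, wit at 63.4 ± 6.44 TPM and sax at 49.9 ± 4.86 TPM. The glypican genes dally and dlp, whose products move Dpp and other ligands over the tissue, had 268 ± 24.3 and 179 ± 2.50 TPM.

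Inside the cell, the transducer genes Mad and Med had 127 ± 4.28 and 28.4 ± 5.99 TPM, and shn, needed for repression by Mad, had 132 ± 4.23 TPM. The inhibitory Smad gene Dad, a target of the pathway, was the highest gene of the list, with 2204, 2267 and 2830 counts and 379 ± 15.5 TPM. The repressor gene brk, which Dpp signalling turns off, had 224, 327 and 219 counts and 49.6 ± 13.7 TPM, and Dad stood 5.67 to 10.57 times above it. The extracellular regulators were cv-2 at 83.2 ± 2.74 TPM, magu at 34.5 ± 10.4 TPM, sog at 30.4 ± 0.432 TPM and tsg at 19.1 ± 4.88 TPM.

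Of the Wingless pathway, all 23 genes were detected and 16 stood above the chemoreceptor level. The ligand genes were wg at 438, 490 and 583 counts and 105 ± 4.54 TPM, Wnt5 at 69.2 ± 4.49 TPM, Wnt2 at 56.3 ± 4.89 TPM, Wnt6 at 43.8 ± 2.30 TPM, Wnt4 at 32.6 ± 8.22 TPM and Wnt10 at 24.5 ± 0.488 TPM. The order of the first and second ligands held in every library. Receptor genes were fz2 (214 ± 18.1 TPM), the co-receptor gene arr (154 ± 12.7 TPM), fz (154 ± 6.14 TPM) and fz3 (86.5 ± 11.03 TPM). The beta-catenin gene arm, which also serves adhesion, was highest at 469 ± 3.18 TPM, and the feedback genes nkd and Notum had 247 ± 29.4 and 70.5 ± 10.3 TPM. The acyltransferase gene por, needed for Wnt release, was lowest at 9.35 ± 1.10 TPM, and Apc had 38.3 ± 4.60 TPM.

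Notch pathway genes were read throughout. All 23 were detected and 20 stood above the chemoreceptor level. The receptor gene N had 4926, 5787 and 6075 counts and 336 ± 19.3 TPM, and the ligand genes Ser (184 ± 18.9 TPM) and Dl (165 ± 5.39 TPM) were near each other, with a ratio of 0.986 to 1.19. The protease genes kuz, nct and Psn had 134 ± 12.3, 125 ± 11.9 and 104 ± 13.01 TPM. Su(H), which encodes the DNA-binding transducer, had 33.6 ± 5.90 TPM.

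The E(spl) genes, the immediate Notch targets, ranged widely and differed between libraries. E(spl)m7-HLH had 2061, 1243 and 1285 counts and 970 ± 374 TPM, E(spl)mbeta-HLH had 1379, 1486 and 1481 counts and 908 ± 70.4 TPM, and E(spl)m2-BFM had 1320, 905 and 785 counts and 654 ± 242 TPM. E(spl)mdelta-HLH (470 ± 23.6 TPM), E(spl)malpha-BFM (357 ± 80.9 TPM) and E(spl)m3-HLH (348 ± 131 TPM) followed, and E(spl)m5-HLH was lowest at 20.5 ± 9.89 TPM. The library gfp_1 was highest by CPM for 10 of the 11 E(spl) genes listed, the exception being E(spl)mbeta-HLH, and the ratio of the highest to the lowest library was 1.08 to 2.94.

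In the EGFR pathway, 17 of 21 genes stood above the chemoreceptor level and all were detected. Ligand genes were spi at 228 ± 5.95 TPM, vn at 146 ± 5.25 TPM, grk at 116 ± 18.3 TPM and Krn at 47.6 ± 3.36 TPM. The receptor gene Egfr had 172 ± 19.1 TPM, and the protease gene rho, which frees Spi, had 155 ± 12.1 TPM, while its relative ru was lowest at 26, 19 and 5 counts. The repressor genes aop (229 ± 20.8 TPM) and cic (141 ± 5.18 TPM) stood above the activator pnt (87.1 ± 4.45 TPM). Feedback inhibitor genes were kek1 at 181 ± 19.3 TPM, sty at 137 ± 11.1 TPM and aos at 53.8 ± 2.69 TPM.

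The JAK/STAT pathway was represented by its receptor and transducers more than by its ligands. All 12 genes of its list were detected and 6 (50%) stood above the chemoreceptor level. Stat92E had 1470, 1780 and 1783 counts and 197 ± 15.8 TPM, the receptor gene dome had 85.5 ± 8.67 TPM and the kinase gene hop had 342, 466 and 471 counts and 51.3 ± 6.45 TPM. The ligand genes upd1, upd2 and upd3 had 6.79 ± 0.435, 1.88 ± 0.490 and 1.78 ± 0.802 TPM, and upd2 and upd3 gave no more than 9 counts in any library. The phosphatase gene Ptp61F had 151 ± 10.535 TPM, the feedback gene Socs36E had 48.1 ± 3.30 TPM and the target gene chinmo had 540, 677 and 744 counts and 31.5 ± 2.67 TPM. The short receptor gene et (latran) had 12.7 ± 3.50 TPM.

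Growth control genes were broadly present. All 19 Hippo pathway genes were detected and 14 stood above the chemoreceptor level, with ex at 325 ± 12.8 TPM, ds at 309 ± 6.78 TPM, fj at 302 ± 30.5 TPM and ft at 222 ± 2.85 TPM as the highest. The coactivator gene yki had 73.8 ± 3.54 TPM and its partner sd had 188 ± 9.20 TPM, while the kinase gene wts had 37.6 ± 2.24 TPM and the scaffold gene sav had 22.1 ± 5.18 TPM. The growth regulator gene Myc (dm in the table) had 1414, 1379 and 1519 counts and 96.0 ± 6.31 TPM, with 61.2% of its exon bases shared with overlapping genes. Its dimerisation partners Max and Mnt had 69.7 ± 4.26 and 83.8 ± 5.72 TPM.

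In the insulin and TOR list, 21 of 22 genes were detected and 11 stood above the chemoreceptor level. The receptor gene InR had 173 ± 8.17 TPM, Akt1 had 159 ± 5.34 TPM and S6k had 120 ± 10.3 TPM, and Tor itself had 59.7 ± 4.97 TPM. The insulin-like peptide genes were low, from Ilp8 at 25.8 ± 6.51 TPM to Ilp7 at 4.33 ± 0.731 TPM, and none exceeded 47 counts in a library.

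Cell cycle genes were read throughout, with all 26 detected and 24 above the chemoreceptor level. PCNA, the sliding clamp of replication, had 700 ± 62.0 TPM, followed by the mitotic kinase gene polo (273 ± 4.57 TPM), the phosphatase gene stg that triggers mitosis (269 ± 19.4 TPM) and Cdk1 (263 ± 39.4 TPM). The lowest were aurB (18.6 ± 4.45 TPM), E2f2 (50.0 ± 2.10 TPM), CycE (57.1 ± 1.52 TPM) and dup (63.2 ± 4.202 TPM). The reference was also exceeded by 17 of 20 epithelial junction and polarity genes. Adhesion and junction genes at the top of that list were arm, ATPalpha (341 ± 19.1 TPM), Fas3 (306 ± 6.40 TPM) and shg, the E-cadherin gene (276 ± 11.4 TPM), and the polarity gene baz was lowest at 25.3 ± 1.32 TPM.

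Ecdysone response genes spanned the widest range of levels among the signalling lists, and ImpE2 stood 2769 times above Cyp18a1 by mean TPM. This ratio is imprecise, because Cyp18a1 had no more than 12 counts in a library. ImpE2, which encodes an apical extracellular protein induced by the hormone in discs, had 12857, 11997 and 11906 counts and stood 19.6 to 23.2 times above ImpE1 (209 ± 39.2 TPM). Both receptor subunit genes were moderate, with EcR at 74.9 ± 2.30 TPM and usp at 52.7 ± 7.57 TPM, and the coactivator gene tai had 93.4 ± 5.50 TPM. The hormone importer gene Oatp74D had 165 ± 12.6 TPM, and Cyp18a1, whose product inactivates ecdysone, had 4, 12 and 8 counts and 1.59 ± 0.813 TPM.

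The temporal factors were unequal. The pupal specifier br had 15298, 15929 and 16380 counts and 481 ± 33.7 TPM, while Eip93F, which acts in the adult step, had 187, 219 and 331 counts and 11.6 ± 2.31 TPM. Within a library br stood 31.1 to 51.4 times above Eip93F and 13.8 to 17.7 times above the larval-stage gene chinmo. Early response genes were Eip75B at 139 ± 10.9 TPM and Eip74EF at 63.6 ± 6.50 TPM. The prepupal receptor gene ftz-f1 had 26.5 ± 0.979 TPM, with 29.4% of exon bases shared, and Hr38 had 9.16 ± 1.14 TPM.

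Some heat-shock genes were unequal in the 3 libraries. The small heat-shock genes Hsp23 and Hsp27 had 2541 ± 577 and 2476 ± 296 TPM, and Hsp26 had 732 ± 95.9 TPM. Hsp68, which is induced by stress, had 761, 1553 and 1129 counts and 314 ± 110 TPM, and Hsp23 had 2491, 3930 and 4767 counts. The library gfp_1 was lowest for Hsp68 and Hsp23. The Hsp70 copies were at 3.33 to 7.88 TPM, from Hsp70Bc to Hsp70Ab, but these genes are near-identical and reads that match several copies may be missing. The noncoding stress RNA gene Hsromega was among the most read genes, with 21786, 17586 and 19929 counts and 560 ± 94.7 TPM. The part of sorting or dissociation in these levels was not tested.

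The JNK and cell death genes named here were read at low to moderate levels. Of 23 genes in the JNK and stress list, 12 (52.2%) stood above the chemoreceptor level, as did 7 (50%) of 14 apoptosis genes. The first list also held heat-shock genes, up to Hsc70-4 at 3088 TPM, so 52.2% is not a share of JNK genes alone. The kinase gene bsk had 118 ± 14.7 TPM, the receptor gene grnd had 141 ± 6.39 TPM, the Fos gene kay had 100 ± 20.9 TPM, the feedback phosphatase gene puc had 72.5 ± 14.5 TPM and Mmp1 had 34.7 ± 4.79 TPM, while the TNF ligand gene egr had 13.5 ± 3.23 TPM. Of the death activators, rpr had 171, 131 and 155 counts and 104 ± 19.6 TPM and hid had 564, 480 and 586 counts and 82.8 ± 9.64 TPM. The activator gene grim had 0, 3 and 0 counts, with 75.9% of its exon bases shared with other RNAs, and skl had 9.98 ± 4.47 TPM. The caspase genes Drice (192 ± 13.4 TPM) and Dcp-1 (110 ± 1.56 TPM) and the inhibitor gene Diap1 (153 ± 3.99 TPM) were higher than the initiator caspase gene Dronc (40.6 ± 2.79 TPM).

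In the Toll and Imd list, 17 of 18 genes were detected. The adaptor gene tub (128 ± 7.62 TPM), the inhibitor gene cact (126 ± 6.51 TPM), the protease gene modSP (90.6 ± 4.86 TPM) and the receptor gene Toll-7 (82.4 ± 19.5 TPM) were highest. The ligand gene spz had 15.4 ± 1.98 TPM and Toll-6 had 2, 6 and 1 counts. Of 14 antimicrobial peptide genes, 7 were detected and Drs stood above the chemoreceptor level, at 69, 62 and 70 counts and 106 ± 11.1 TPM, a short gene in which few counts give a high TPM.

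**Figure D4:**
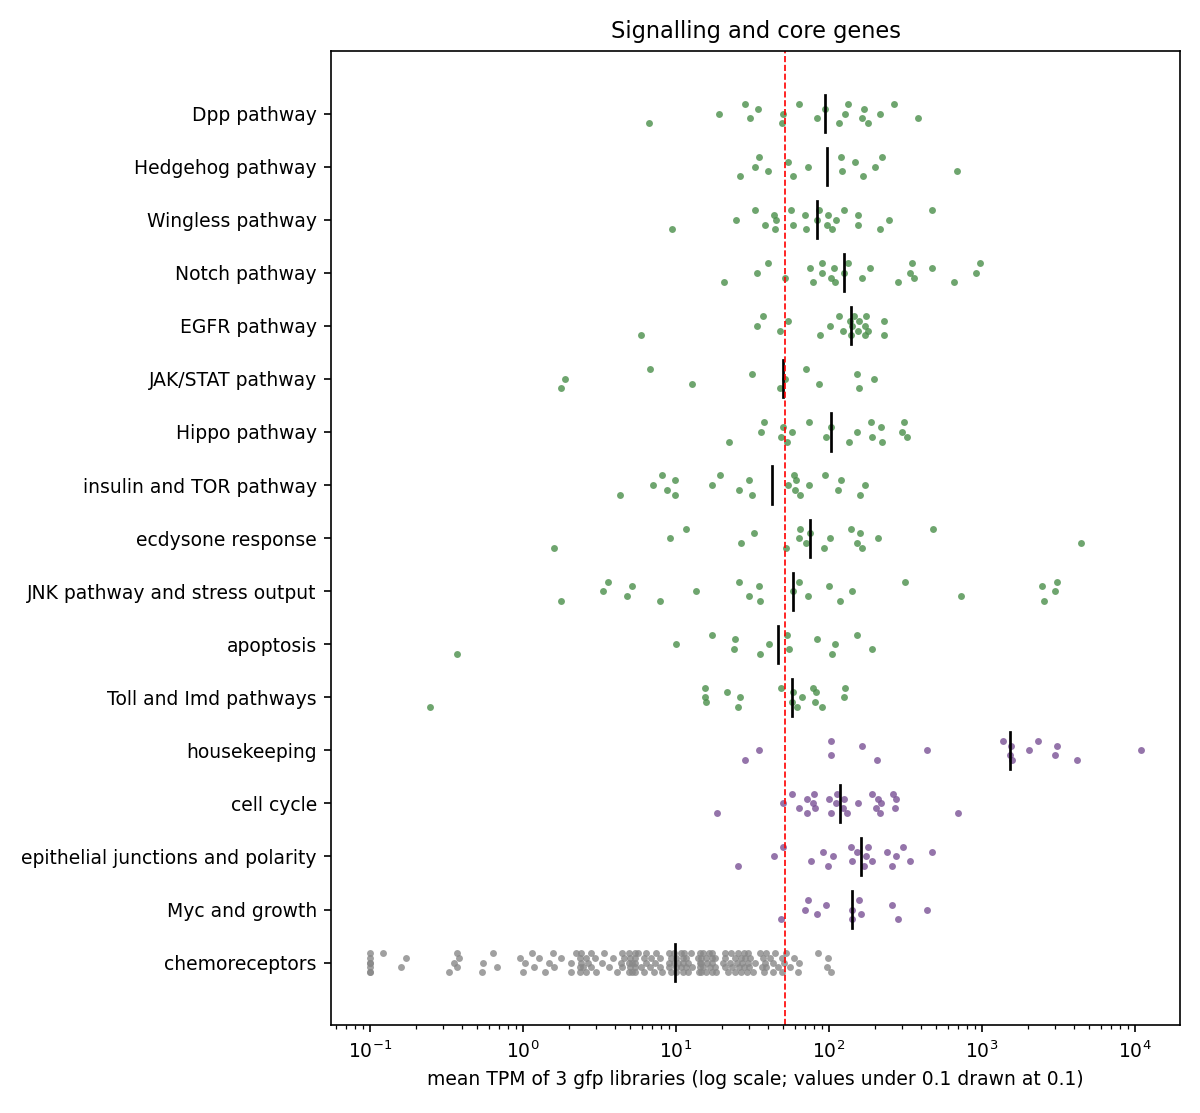
Mean TPM over the 3 gfp libraries (log scale) of each gene of the signalling lists (green) and of the core lists (purple), with 176 chemoreceptor genes in grey. Vertical bars are list medians and the dashed line is at 51.2 TPM, which 148 of 224 signalling genes with a length and 67 of 75 core genes exceeded.

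Marker genes of other tissues were read at low levels for the most part. Of 157 such genes, antimicrobial peptide genes included, 127 (80.9%) were detected against 78.0% of all genes, so that detection does not set them apart, and 26 exceeded the chemoreceptor level, which 24.9% of all genes did. Of the adult muscle precursors, which lie under the notum epithelium, twi had 36, 61 and 33 counts and 11.2 ± 4.38 TPM, Him had 10, 5 and 0 counts, htl had 6.29 ± 2.85 TPM and Mef2 was highest at 31.5 ± 3.34 TPM. The summed level of these 6 genes was 208 to 288 CPM. Differentiated muscle genes reached 52.4 ± 4.48 TPM at up, which encodes troponin T, and Mhc had 36.3 ± 4.56 TPM.

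In the tracheal list 5 of 6 genes exceeded the chemoreceptor level, with a summed level of 741 to 824 CPM. The chitin deacetylase genes verm and serp had 1178, 1405 and 1456 and 526, 556 and 515 counts in gfp_1, gfp_2 and gfp_3 (347 ± 22.9 and 129 ± 15.7 TPM), Gasp had 89.8 ± 16.3 TPM, trh had 56.7 ± 7.24 TPM and dys had 53.6 ± 6.29 TPM. The FGF receptor gene btl, which defines tracheal cells, had 15.8 ± 3.22 TPM and stood below the chemoreceptor level. Whether verm and serp came from disc or tracheal cells was not tested.

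Blood and fat body genes were low with few exceptions. Of 11 hemocyte genes the scavenger receptor genes Sr-CI (165 ± 9.19 TPM) and crq (88.8 ± 20.9 TPM) exceeded the chemoreceptor level, whereas Hml had 84, 77 and 67 counts and 4.0004 ± 0.833 TPM, NimC1 had 3.08 ± 0.0606 TPM and He had 4, 2 and 2 counts. Their summed level was 405 to 423 CPM. The larval serum protein genes had 4.15 to 13.1 TPM, from Lsp1gamma to Lsp1beta, and Mtp, a lipid transfer gene, was the exception of the fat body list at 79.9 ± 16.4 TPM. The glue genes had Sgs8 at 80.9 ± 9.10 TPM from 40, 44 and 60 counts, Sgs3 at 25.5 ± 2.06 TPM and Sgs5 at 1, 0 and 1 counts.

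Nervous system genes were mixed. The synaptic gene Syt1 had 2492, 1653 and 1876 counts and 173 ± 50.6 TPM and the Na pump subunit gene nrv2 had 184 ± 24.8 TPM, but the defining genes of neurons and glia were lower, with elav at 24.3 ± 2.65 TPM (34.2% of exon bases shared) and repo at 9.67 ± 2.66 TPM. Of the eye list, toy (73.9 ± 11.4 TPM) and chp (59.1 ± 8.54 TPM) exceeded the chemoreceptor level and Optix was lowest at 4.84 ± 0.392 TPM. Of the leg and genital list, al, which also marks parts of the wing disc, had 153 ± 4.70 TPM, dsx had 52.9 ± 2.27 TPM and dac had 13.3 ± 2.73 TPM.

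Germline, gut and gland genes ranged widely within their lists. The piRNA genes aub and piwi had 74.9 ± 19.9 and 74.4 ± 21.0 TPM, and ovo, which also acts in epidermis, had 179 ± 11.3 TPM, while the germ cell markers vas, nos and osk had 6.08 ± 1.18, 10.2 ± 2.46 and 6.44 ± 1.59 TPM, with 84.1% of osk exon bases shared. No testis gene exceeded the chemoreceptor level, and mia was highest at 30.8 ± 6.36 TPM. In the midgut list the snail-family gene esg, which is also used in imaginal cells, had 1280, 1235 and 1232 counts and 338 ± 40.0 TPM, and the digestive enzyme genes Amy-p and Amy-d had 0 counts and 1, 0 and 0 counts. Of ecdysone synthesis genes, spok had 0, 1 and 0 counts, phm had 3.49 ± 1.44 TPM and sro was highest at 43.5 ± 14.7 TPM.

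RNAs of the sex pathway were read from both of its sides. The dosage compensation RNA gene roX1, known from males, had 7238, 7358 and 7772 counts and 835 ± 54.2 TPM, and roX2 had 147 ± 12.4 TPM, with roX1 at 5.12 to 6.66 times roX2. Sxl had 201 ± 15.3 TPM, tra had 136 ± 13.7 TPM and msl-2 had 40.6 ± 0.909 TPM. Gene counts do not separate the sex-specific splice forms of Sxl and tra. The 5 highest long noncoding RNA genes were CR42862 (1086 ± 92.2 TPM), pncr002:3R (918 ± 77.2 TPM), CR45037 (843 ± 128 TPM), roX1 and CR34335 (736 ± 255 TPM), the last of which had 436, 260 and 627 counts.

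RNAs of the mitochondrial genome took 1.32% ± 0.289 of counts other than rRNA, with 1.65% in gfp_1, 1.22% in gfp_2 and 1.10% in gfp_3. These genes are given by CPM, which is not corrected for length, so their order is not an order of levels. The cytochrome oxidase gene mt:CoI had 17487, 14110 and 12963 counts and 3715 ± 899 CPM, and mt:ND5, which encodes a subunit of complex I, had 2028 ± 368 CPM. The subunit genes mt:CoIII and mt:ATPase6 had 1769 ± 450 and 1452 ± 401 CPM, and mt:Cyt-b had 1418 ± 130 CPM. The library gfp_1 was highest for all 5 of these genes.

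The 3 libraries were close to each other. Over the 12781 detected genes, Spearman correlations of CPM between pairs of libraries were 0.963 to 0.972, given as a description because genes are not independent and share library and depth. The common biological coefficient of variation, the spread between libraries beyond counting error, was 0.161. The median ratio of the highest to the lowest library was 1.96 for genes at 1 to 10 CPM, 1.34 at 10 to 100 CPM, 1.16 at 100 to 1000 CPM and 1.11 at 1000 CPM and over, so values of low genes carry the larger error.

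**Figure D5:**
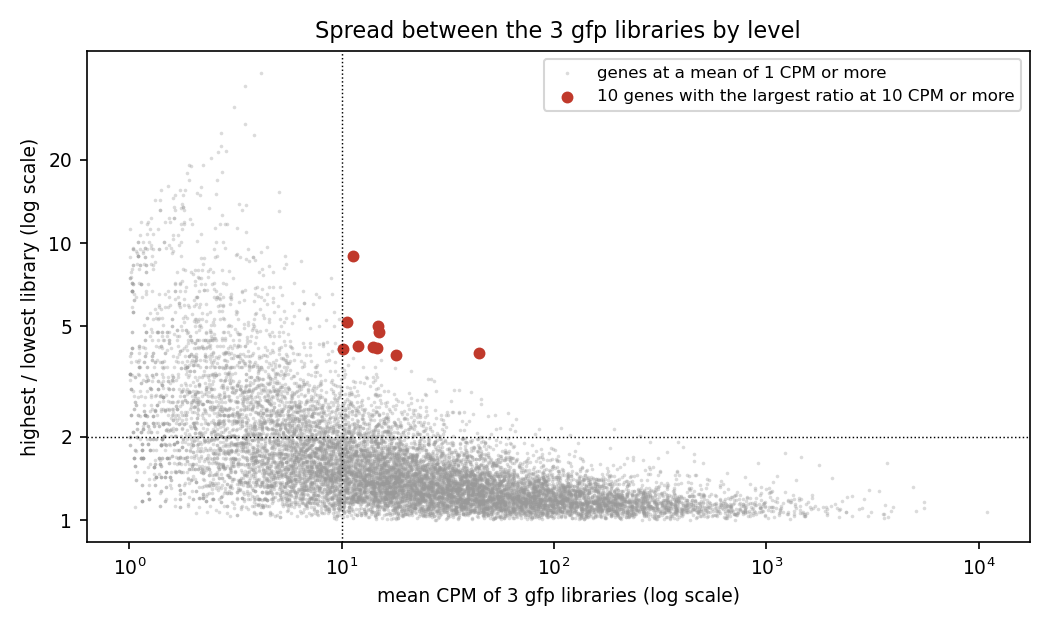
Ratio of the highest to the lowest gfp library (log scale) against mean CPM (log scale) for genes at a mean of 1 CPM or more with a count in every library; red points are the 10 genes with the largest ratio at 10 CPM or more. Ratios narrow with level, and 451 of 8700 genes at 10 CPM or more reach 2.

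Of 8700 genes at a mean of 10 CPM or more, 451 (5.18%) differed by at least 2 times between libraries, and gfp_1 was highest for 216 of them (47.9%), against 32.6% of all 8700 genes. The largest ratio was 8.95 at CR42875, with 90, 28 and 12 counts. CG31098 had 83, 17 and 23 counts, CG14540 had 104, 22 and 50, the calcium channel gene Ca-alpha1T had 99, 22 and 57 and jeb, which encodes the ligand of the receptor Alk, had 320, 101 and 95. The remaining genes of the 10 were mRpL44 with 15, 58 and 76 counts, CR45289 with 88, 52 and 25, CG13476 with 91, 55 and 26, CR44922 with 66, 17 and 37 and CG13898 with 116, 59 and 35. The library gfp_1 was highest for 9 of these 10 genes, the exception being mRpL44.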

How the data were processed

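Discs were dissociated, GFP-positive cells were sorted and RNA was amplified from a small input. Per the methods, the authors obtained gene counts with HTSeq from STAR alignments to dm6 after duplicates were taken out with Picard; neither versions nor a strand setting are given in the sources used here. Removal of duplicates can lower short abundant genes, and its effect was not tested. The deposited counts are whole numbers for 16492 symbols, of which 100 are rRNA genes. The authors made the signal values of a second, normalized table by dividing counts by size factors with DESeq2, and 100% of its gfp values came out within 0.05 of a whole read. Of 15974 symbols in both tables, 13718 had the same reads in all 3 gfp libraries, so it is not just the raw counts rescaled. The reason for the other reads was not tested. The normalized table was used as an alternative only.

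CPM and TPM were computed from the raw counts in Python 3.11.15 with pandas 2.3.3. Gene positions, exon lengths and exon overlaps were taken from the BDGP6 annotation. It held 11947 of the symbols directly and 4285 as older names, and 260 found no entry. The spread between libraries was estimated with edgeR 4.0.16 in R 4.3.3 and the function was checked on simulated data. No test was run, since 1 group was described. The alternatives were other totals, scaling by TMM or by DESeq2 1.42.0 size factors, other detection limits, the normalized table, the longest transcript as length and each library left out in turn.

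The members and gene lists were chosen with earlier results of these data known. Genes were named by rule: the 20 highest nuclear genes per length, the 10 highest outside the ribosomal proteins, the 5 highest long noncoding RNAs, the 10 genes at 10 CPM or more with the largest ratio between libraries, all members of regional lists, and of other lists the highest and lowest members. Genes named beyond this rule were picked for their role after their values were seen, as were the families and the chemoreceptor reference.
The labels and the text of the study differ on the eye-colour genotype of the flies.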

Additional observations from a re-analysis of the deposited data

Results flagged for a closer look

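The normalized table lists genes that the raw table does not hold, and these entered no result above. Read back to whole reads, 310 of 1054 such genes other than rRNA reached 1 CPM in all 3 gfp libraries, above the limit that a count of 0 allows. The highest was lola, which encodes a transcription factor with many isoforms, with 4001, 4224 and 4567 reads in gfp_1, gfp_2 and gfp_3, and mod(mdg4) had 1067, 1039 and 1210 reads and Kr-h1, a hormone response gene, had 353, 492 and 467 reads.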

How the results depend on the processing

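The number of detected genes was 11444 to 15330 over all alternatives, against 12781, and 12972 to 13137 with 1 library left out. The counts of detected genes in the regional, signalling and other tissue lists, and the counts above the chemoreceptor level, whose alternatives were added after the data were seen, stayed within 1.5 times under every alternative run. With the longest transcript as length, dpp had 193 TPM against 164, ptc 159 against 167, kn 68.7 against 64.4 and inv 55.7 against 47.1. These shifts exceeded the SD over libraries, while those of ci, en and hh did not. The shares depended on the total and on length. With all counts as the total, the ribosomal protein, mitochondrial and ncRNA genes took 4.94%, 0.964% and 1.60%. The 10 and 100 highest genes by CPM took 3.71% and 15.1%. Per kb of exon these shares were, in the same order, 17.8%, 3.03%, 4.01%, 3.25% and 19.99%, and rRNA genes took 51.1%. The 10 and 100 genes were picked by CPM here too, so 3.25% is not the share of the 10 highest genes per length. The rRNA share was 19.5% in the normalized table, and the cause was not tested. The coefficient of variation was 0.136 to 0.188 with 1 library left out. No paired analysis was possible because the results come from no test. Depth limits genes under 10 CPM, and single copies of repeated genes cannot be resolved.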

Other observations

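Genes on the small chromosome 4, where ci lies, had higher median levels than those on the other chromosomes, given as a description with no test. Of its 79 protein-coding genes, 78 were detected, with a median of 97.3 TPM over all 79, while the medians of X, 2L, 2R, 3L and 3R were 20.9 to 26.8 TPM. The median of this chromosome was 91.3 to 97.6 TPM in each of the 3 libraries. Of its genes, 48.1% reached 100 TPM, against 10.8% to 12.97% on X, 2L, 2R, 3L and 3R. Its highest genes were RpS3A (5698 ± 132 TPM), the ATP synthase gene ATPsyn-beta (1582 ± 7.62 TPM), ci (685 ± 47.2 TPM) and CG31997 (630 ± 13.1 TPM). The median exon length on chromosome 4 was 4336 bases, against 1647 to 1985 bases on X, 2L, 2R, 3L and 3R.

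A count of 0 cannot be read as absence of RNA for every gene. Of 500 protein-coding nuclear genes with no count, 106 were clustered histone genes, which are near-identical copies and of which 111 are in the table, and 8 were on the Y chromosome. Outside the histone cluster, 28.7% of the no-count genes had at least 90% of their exon bases shared with another gene, against 0.443% of the 11520 detected protein-coding genes. Prosalpha1, a core proteasome subunit that every cell uses, had no count in any library, and neither did its near-identical copy CG30382.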
